A study of Mus musculus with 21 samples.

Results

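Occupancy of c-MYC at gene starts was compared between mouse embryonic fibroblasts (MEFs) that carry Hsf1 and MEFs in which Hsf1 was deleted. Of the 21 samples of the series, 5 are CUT&RUN samples, and all 5 were chosen by their labels. Of these, 2 are Hsf1 WT cells that had ethanol, the solvent, for 7 days, and 2 are Hsf1 CKO cells in which 1 mM 4-OHT (4-hydroxytamoxifen, concentration as labelled) deleted the gene over the same 7 days. The last is an IgG control on WT and CKO cells mixed 1:1, and each sample used 500000 crosslinked cells. The antibody against c-MYC is labelled as recognising c-Myc and N-Myc. Ethanol and 4-OHT differ between the genotypes together with Hsf1, so gene and drug cannot be told apart. The labels used here do not name the Cre driver or say whether the replicates were separate cultures.

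c-MYC is a transcription factor that pairs with MAX and binds E-box sequences, most tightly CACGTG, and in growing cells it sits at the promoters of very many active genes. Its best-known targets make ribosomes, nucleotides and other parts of the growth machinery. HSF1 is the main activator of heat-shock genes and binds heat shock elements, inverted repeats of GAA and TTC. In CUT&RUN an antibody tethers a nuclease that cuts the DNA around the bound protein, and the freed fragments are sequenced.

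The files hold 1 peak list per genotype, called with SEACR in its stringent mode against IgG. Whether replicates were pooled is not stated, so no value on peaks has a replicate error, and both lists share the IgG control. The WT list has 220037 peaks over 510 Mb and the CKO list 6386 peaks over 11.5 Mb, with median lengths of 1835 and 1658 bases. The maximal coverage of a peak runs in whole steps, of 0.000684 in the WT list and 0.000361 in the CKO list. What a step stands for is not stated, so a peak is described by its steps and its rank within its own list (rank 1 is the highest), and heights are not compared between lists. WT peaks span 2 to 94 steps with a median of 6, and CKO peaks span 3 to 96 with a median of 10. Nearly every CKO peak lay on a WT peak (5960 of 6386, 93.3%), whereas 2.63% of WT peaks met a CKO peak. Gene starts held 4.94% of WT peaks and 56.3% of CKO peaks.

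A gene was given a start peak where a peak had at least 1 base within 500 bases of the 5′ end of its record (GRCm38). Of 21879 protein-coding genes, 11961 (54.7%) had a start peak in the WT list and 4224 (19.3%) in the CKO list. Both lists held 4062 genes, so 34.0% of the WT start peaks were kept. The WT list is far longer, and with only its 5513 tallest peaks, near the length of the CKO list, 2242 of 2872 genes (78.1%) kept a start peak. A further 7899 genes had a start peak in the WT list alone, 162 in the CKO list alone and 9756 in neither. The kept genes lay on 3446 distinct CKO peaks, and 1253 genes shared their CKO start peak with a neighbour. At kept genes the CKO maximum lay a median of 113 bases downstream of the start (quartiles -190.5 and 262), and within 500 bases at 79.4% of genes.

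Kept starts carried the E-box more often than starts with a WT peak alone. The motif CACGTG, a palindrome that reads alike on both strands, was searched in RefSeq promoters of GRCm38.p6 (250 bases before to 50 bases after the start), which matched 14987 of the 21879 genes. It was in 8.24% of all promoters, in 14.8% at kept genes (449 of 3044), in 7.6% where the peak was in the WT list alone (414 of 5447) and in 5.63% where neither list had one. The share was higher for taller CKO peaks, from 7.2% at 3 to 7 steps to 23.5% at 20 steps and more. Between 13 and 19 WT steps, the share was 15.4% at kept genes and 12.5% at genes with a WT peak alone. The heat shock element, searched on both strands as GAA, any 2 bases, TTC, any 2 bases and GAA, was rare throughout, at 0.454% of all promoters, 0.624% of the kept ones (19 genes) and 0.404% of those with a WT peak alone (22 genes). The CpG count per window had a median of 24 at kept genes, 16 with a WT peak alone and 5 with neither, so base composition differed along with the motif.

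Promoters of 6 genes, chosen after their values were seen, show these classes, with CACGTG or a heat shock element in capitals. Ran, Mnt and Nme1 kept tall peaks over an E-box, which begins 118, 123 and 18 bases before the RefSeq start. Hspe1 kept its peak over heat shock elements that begin 89 bases before the start and overlap one another. Utp20 and Cry1 have an E-box as well, beginning 38 bases after and 60 bases before the start, and had a WT peak alone. The windows are chr5:129019906-129020205 (+ strand), chr11:74830674-74830973 (+ strand), chr11:93968223-93968522 (- strand), chr1:55087898-55088197 (+ strand), chr10:88826765-88827064 (- strand) and chr10:85185005-85185304 (- strand).
Ran: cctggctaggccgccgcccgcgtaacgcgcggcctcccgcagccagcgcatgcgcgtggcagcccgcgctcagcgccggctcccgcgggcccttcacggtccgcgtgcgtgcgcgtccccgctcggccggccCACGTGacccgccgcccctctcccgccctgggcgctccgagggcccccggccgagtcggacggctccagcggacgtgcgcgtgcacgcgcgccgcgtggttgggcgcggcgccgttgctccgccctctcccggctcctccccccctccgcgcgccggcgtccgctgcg
Mnt: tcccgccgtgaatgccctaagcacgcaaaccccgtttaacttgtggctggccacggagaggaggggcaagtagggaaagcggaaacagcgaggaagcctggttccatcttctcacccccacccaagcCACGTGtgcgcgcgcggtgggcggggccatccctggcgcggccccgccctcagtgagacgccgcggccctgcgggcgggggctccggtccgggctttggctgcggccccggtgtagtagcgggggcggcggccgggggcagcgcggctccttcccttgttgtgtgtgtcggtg
Nme1: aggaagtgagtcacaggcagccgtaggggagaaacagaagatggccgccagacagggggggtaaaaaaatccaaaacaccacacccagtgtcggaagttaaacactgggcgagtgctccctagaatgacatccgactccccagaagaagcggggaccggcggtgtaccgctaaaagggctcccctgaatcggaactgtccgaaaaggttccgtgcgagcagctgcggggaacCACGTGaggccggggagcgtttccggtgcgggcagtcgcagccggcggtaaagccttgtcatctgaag
Hspe1: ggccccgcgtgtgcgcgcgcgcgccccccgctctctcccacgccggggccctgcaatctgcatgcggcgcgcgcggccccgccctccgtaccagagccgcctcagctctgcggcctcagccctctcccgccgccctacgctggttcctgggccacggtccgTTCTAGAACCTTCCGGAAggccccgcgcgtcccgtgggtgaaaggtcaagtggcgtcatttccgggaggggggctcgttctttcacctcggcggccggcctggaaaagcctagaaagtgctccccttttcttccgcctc
Utp20: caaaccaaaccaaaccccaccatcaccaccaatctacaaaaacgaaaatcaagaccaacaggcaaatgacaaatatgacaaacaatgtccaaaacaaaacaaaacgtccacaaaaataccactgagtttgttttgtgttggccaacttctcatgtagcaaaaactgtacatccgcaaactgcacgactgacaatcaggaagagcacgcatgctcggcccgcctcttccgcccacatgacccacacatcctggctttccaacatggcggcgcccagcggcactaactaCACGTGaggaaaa
Cry1: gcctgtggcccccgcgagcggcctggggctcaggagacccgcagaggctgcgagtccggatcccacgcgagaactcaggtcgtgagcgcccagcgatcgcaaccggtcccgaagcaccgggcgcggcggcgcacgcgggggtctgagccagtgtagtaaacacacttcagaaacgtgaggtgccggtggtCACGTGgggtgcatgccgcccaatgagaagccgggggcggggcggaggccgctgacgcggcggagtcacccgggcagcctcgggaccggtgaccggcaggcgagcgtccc
A match describes the letters of the window and does not show where c-MYC bound within a peak of this length. The Utp20 and Cry1 windows show that an E-box near the start was present in both classes.

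How tall the WT peak was went along with whether a CKO peak was listed. At 5 WT steps 1.99% of genes kept a start peak, at 7 steps 11.7%, at 10 steps 43.1%, at 13 steps 70.0%, and at 20 steps and more 93.3% (540 of 579). Groups of genes differ in WT height, so each kept share is given beside the share that all protein-coding genes show at the same WT steps. Both numbers describe these lists and carry no test.

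**Figure D1:**
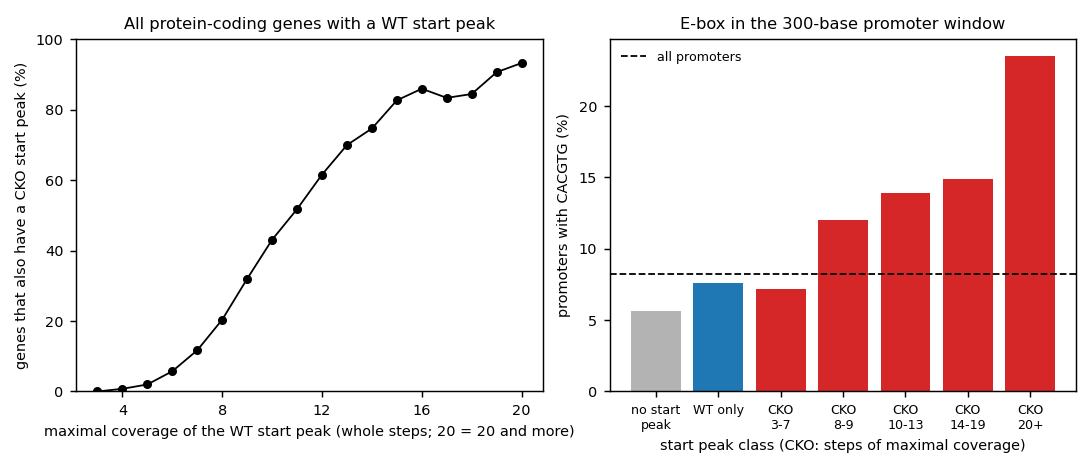
Left, percentage of protein-coding genes with a WT start peak that also have a CKO start peak, by WT maximal coverage in whole steps, rising to 93.3% at 20 steps and more. Right, percentage of 300-base promoters holding CACGTG for genes with no start peak, a WT start peak alone, or a CKO start peak by CKO steps, with all promoters (8.24%) as the dashed line.

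The tallest CKO start peaks were at genes of varied function. Psme3, the gamma subunit of the proteasome activator PA28, shared rank 1 (96 CKO steps, peak chr11:101315407-101317338), and its WT peak ranked 9 (62 WT steps). The other peak at rank 1 (chr3:138143066-138145122) spans the divergent starts of Trmt10a, a tRNA methyltransferase, and Mttp, which loads lipid onto lipoproteins, and the WT peak there ranked 14. Hspa9, the mitochondrial HSP70, ranked 24 in WT and 8 in CKO. Ppp1r15b, a regulatory subunit of the phosphatase that acts on eIF2 alpha, ranked 9 and 10. Ran, the GTPase of nuclear transport, ranked 31 and 13 (CKO peak chr5:129019019-129021234). Cct3, a subunit of the TRiC chaperonin, shares its peak with Tsacc and ranked 7 and 17. Mnt, a MAX partner that opposes MYC, ranked 19 and 22. Of the 20 protein-coding genes with the tallest CKO start peaks, 18 also had a WT start peak. The remaining pair, Hnrnpa1 and Cbx5, share 1 CKO peak at rank 3 (91 CKO steps, chr15:103238082-103243764), for which the WT list used here holds no overlapping peak. The nearest WT peak lay 8336 bases from the edge of that CKO peak and had 7 WT steps. Of the 12 genes with the tallest start peaks in the CKO list alone, 9 lie on chromosome 15, and some of them share a peak. Of all 162 such genes, 12 lie on that chromosome. They include Tuba1b, an alpha-tubulin, and Arid2, a chromatin remodeller subunit, both at rank 207.

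The locus of Hsf1 itself kept a c-MYC start peak, ranked 485 in WT (21 WT steps) and 399 in CKO (24 CKO steps, chr15:76475835-76478053). A peak list does not show whether Hsf1 was deleted, and no other value here checks the deletion. Myc had a lower peak at its own start, at rank 8840 in WT (10 WT steps) and 3771 in CKO (9 CKO steps, chr15:61983886-61985438).

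Gene lists of known MYC targets kept most of their start peaks. Among classical MYC targets, 38 of 39 genes had a WT start peak and 34 of these (89.5%) kept it, against 79.0% for all genes at the same WT steps. Nme1, a nucleoside diphosphate kinase, ranked 218 in WT and 28 in CKO (chr11:93966997-93968685). Its neighbour Nme2 ranked 46 and 68, and Ncl, which encodes the nucleolar protein nucleolin, ranked 73 and 28. The 4 genes with a WT peak alone include Prdx3, a mitochondrial peroxidase (12 WT steps), and the phosphatase Cdc25a (10 WT steps). The hallmark MYC V2 list kept 48 of 57 (84.2%, against 70.4%), led in CKO by Tbrg4 at rank 42, Aimp2 at rank 47 and Ppat, the first enzyme of purine synthesis, at rank 50. Both lists hold genes already known as MYC targets, and their members were chosen with earlier results of these data known. A high count of c-MYC peaks in them is therefore not separate evidence. The 6 genes that host small nucleolar RNAs form the smallest list, and all 5 with a WT start peak kept it (100.0%, against 58.1%), Ncl and Nop56 (CKO rank 150) among them.

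Within the MYC network, 10 of 14 WT start peaks were kept (71.4%, against 58.9%). Mnt, Mxd3, Mlx, Max, Mlxip, Mxi1, Wdr5, Bptf and Ruvbl2 kept one besides Myc, with CKO ranks from 22 for Mnt to 5101 for Mxi1. The MAX partner genes Mga and Mxd1 had no start peak in either list. Ruvbl1, a helicase that works with MYC, had 11 WT steps and no CKO start peak, and its nearest CKO peak was 18570 bases away.

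Genes that build ribosomes kept most of their peaks. Ribosome biogenesis factors had a WT start peak at 72 of 73 genes and kept 58 (80.6%, against 64.4%). Ftsj3, a pre-rRNA processing factor that shares its peak with the proteasome gene Psmc5, ranked 39 in WT and 11 in CKO, and the helicase Ddx21 ranked 147 and 80. Utp20 and Noc2l, both processing factors of the pre-ribosome, had 13 WT steps and no CKO start peak, with the nearest CKO peak 2046550 bases away from Utp20 and 125398 bases away from Noc2l. Cytosolic ribosomal protein genes kept 54 of 69 (78.3%, against 62.1%), with Rpl32 at rank 68 in CKO. With the shortened WT list the ribosome biogenesis factors kept 45 of 47 (95.7%), above the 78.1% of all genes. Among those with a WT peak of fewer than 10 steps, ribosomal protein genes kept 9 of 18 and ribosome biogenesis factors 9 of 18, where all protein-coding genes kept 13.7%. Mitochondrial ribosomal protein genes, which serve the separate translation system of that organelle, kept 24 of 63 (38.1%, against 39.0%), at the level of all genes.

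Lists of other steps of translation and RNA handling spanned a wide range. Translation initiation factors kept 35 of 43 (81.4%, against 58.5%), with Eif3b at rank 50 and Eif5a at rank 80 in CKO. The RNA exosome, which trims and degrades RNA, kept 10 of 12 (83.3%, against 56.0%). Elongation factors kept 9 of 12 (75.0%, against 49.4%), and aminoacyl-tRNA synthetases, which charge tRNAs, kept 20 of 30 (66.7%, against 57.8%). Splicing proteins kept 32 of 43 (74.4%, against 61.9%), a count that leaves out Hnrnpa1 because its peak was in the CKO list alone. Subunits of the RNA polymerases kept 13 of 23 (56.5%, against 50.4%). Polr1a and Polr3d, of polymerases I and III, ranked 115 and 57 in CKO, whereas Polr1c, which both enzymes use, had 21 WT steps (rank 485) and its nearest CKO peak 17975 bases away. Mediator subunits kept 7 of 19 (36.8%, against 46.7%), below the all-gene share at their WT steps.

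Enzymes of nucleotide synthesis kept 27 of 33 (81.8%, against 65.7%), among them Paics and Ppat, which share a peak at CKO rank 50. Glycolysis genes kept 13 of 17 (76.5%, against 54.6%), with Ldha and Hk2 both at CKO rank 549. The glucose transporter genes Slc2a1 and Slc2a3 had a WT start peak alone. Polyamine enzymes had a WT start peak at 13 of 13 genes and kept 5 (38.5%, against 31.1%). Those 5 are Srm, Odc1, Azin1, Sms and Eif5a, and Odc1, the rate-limiting enzyme of the pathway, ranked 1593 in CKO. Respiratory chain subunits kept 24 of 64 (37.5%, against 33.4%) and cholesterol synthesis genes 7 of 17 (41.2%, against 44.3%).

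Chaperone genes, the classical targets of HSF1, also kept c-MYC start peaks. Heat-shock proteins and HSP90 co-chaperones had a WT start peak at 30 of 35 genes and kept 22 (73.3%, against 56.0%). With the shortened WT list they kept 11 of 15, also 73.3%, which is below the 78.1% of all genes. Hspd1 and Hspe1, the mitochondrial chaperonin pair, share a divergent start with 22 WT steps and 30 CKO steps (rank 207, chr1:55086667-55089396). Hsph1, an HSP110, ranked 218 in WT and 165 in CKO, and Hsp90ab1, the constitutive HSP90, ranked 2659 and 295. The 8 genes with a WT peak alone were Hspa4, Hspa4l, Serpinh1, Hspb1, Hspb8, Cryab, Bag1 and Bag3, at 5 to 14 WT steps. Small heat-shock proteins (Hspb1, Hspb8 and Cryab) are among them, and the nearest CKO peak to Hspa4 was 49813 bases away. TRiC chaperonin and prefoldin genes kept 10 of 12 (83.3%, against 71.9%). J-domain proteins, the partners of HSP70, kept 13 of 27 (48.1%, against 45.2%), unfolded protein response genes 13 of 19 (68.4%, against 57.5%) and proteasome genes 14 of 34 (41.2%, against 34.7%).

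**Figure D2:**
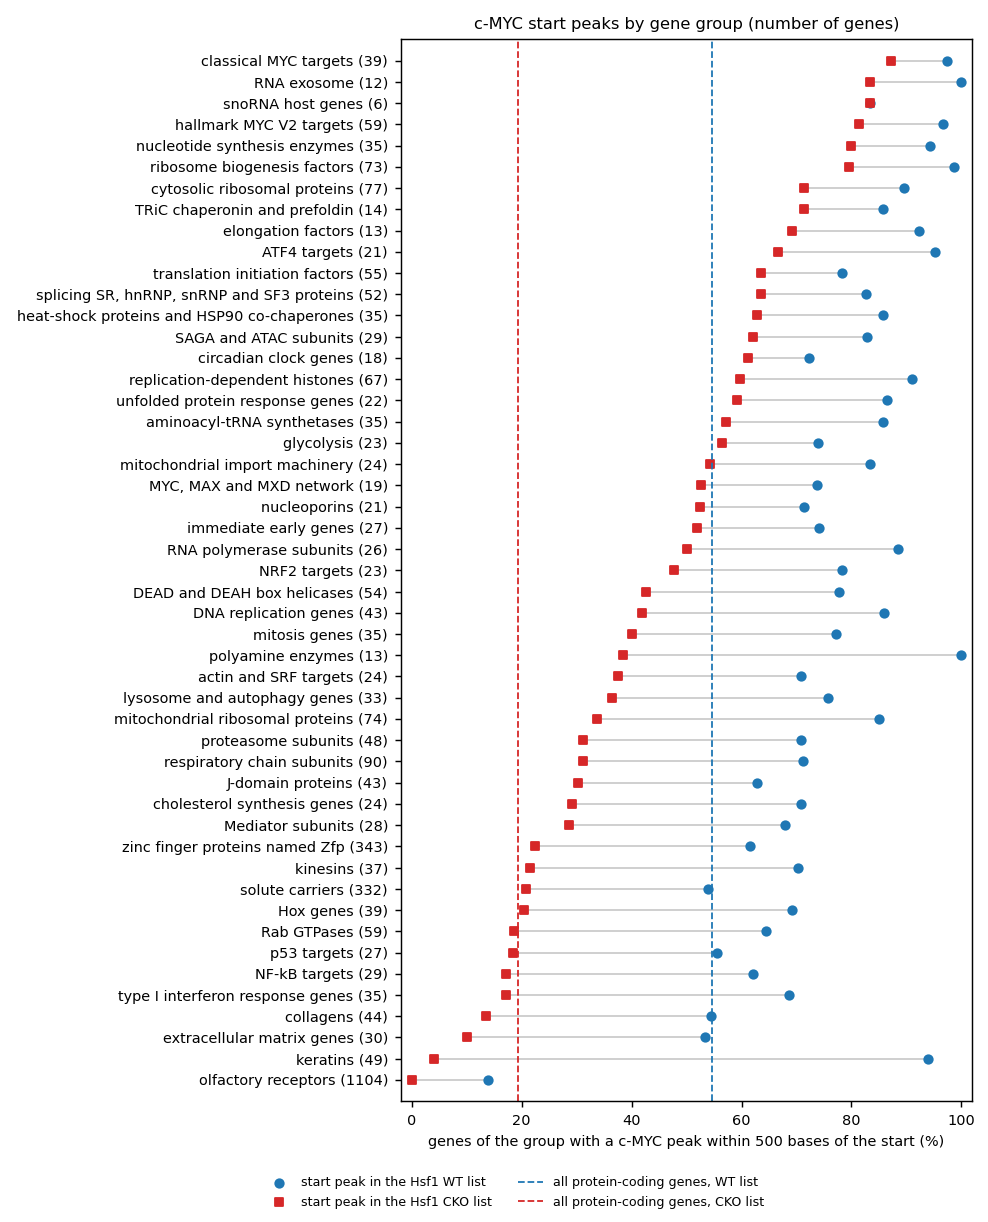
Percentage of genes in each of 49 groups with a c-MYC start peak in the WT list (circles) and in the CKO list (squares), ordered by the CKO share, with the number of genes in parentheses. Dashed lines mark all protein-coding genes (54.7% WT, 19.3% CKO). Classical MYC targets, the RNA exosome and snoRNA host genes have the highest CKO shares, and keratins and olfactory receptors the lowest.

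SAGA and ATAC, the co-activator complexes that contain GCN5, kept 17 of 24 (70.8%, against 52.5%). Kat2a, which encodes GCN5, had 20 WT steps and 15 CKO steps, and Eny2 had the highest CKO rank of the group, at 186. Clock genes kept 10 of 13 (76.9%, against 68.5%), led by the repressor Nr1d1 at CKO rank 28. Cry1, another clock repressor, had 20 WT steps and its nearest CKO peak 266593 bases away. ATF4 targets, the amino acid stress genes, kept 14 of 20 (70.0%, against 62.9%), with Psat1 at CKO rank 139 and Atf4 at rank 165. Immediate early genes kept 13 of 20 (65.0%, against 53.4%). DNA replication genes kept 18 of 37 (48.6%, against 48.8%) and mitosis genes 13 of 27 (48.1%, against 40.2%).

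The lists with low kept shares are described next. Rab GTPases kept 10 of 38 (26.3%, against 31.3%), kinesins 7 of 26 (26.9%, against 26.2%) and p53 targets 5 of 15 (33.3%, against 37.7%). Type I interferon response genes kept 6 of 24 (25.0%, against 32.2%), NF-kB targets 5 of 18 (27.8%, against 37.1%) and extracellular matrix genes 3 of 16 (18.8%, against 32.1%). The 3 matrix genes are Lamc1, Timp2 and Hspg2. Collagens kept 6 of 24 (25.0%, against 23.9%), among them Col1a1 at CKO rank 2217. Olfactory receptor genes, which are silent in fibroblasts, had a WT start peak at 154 of 1104 genes and no CKO start peak, where 10.6% of all genes at the same WT steps kept one. Keratins had a WT start peak at 46 of 49 genes and kept 2 (4.35%, against 38.3%). The keratin clusters lie on chromosome 11, with 22 WT start peaks and 0 kept, and on chromosome 15, with 24 and 2, which are Krt80 and Krt8.

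**Figure D3:**
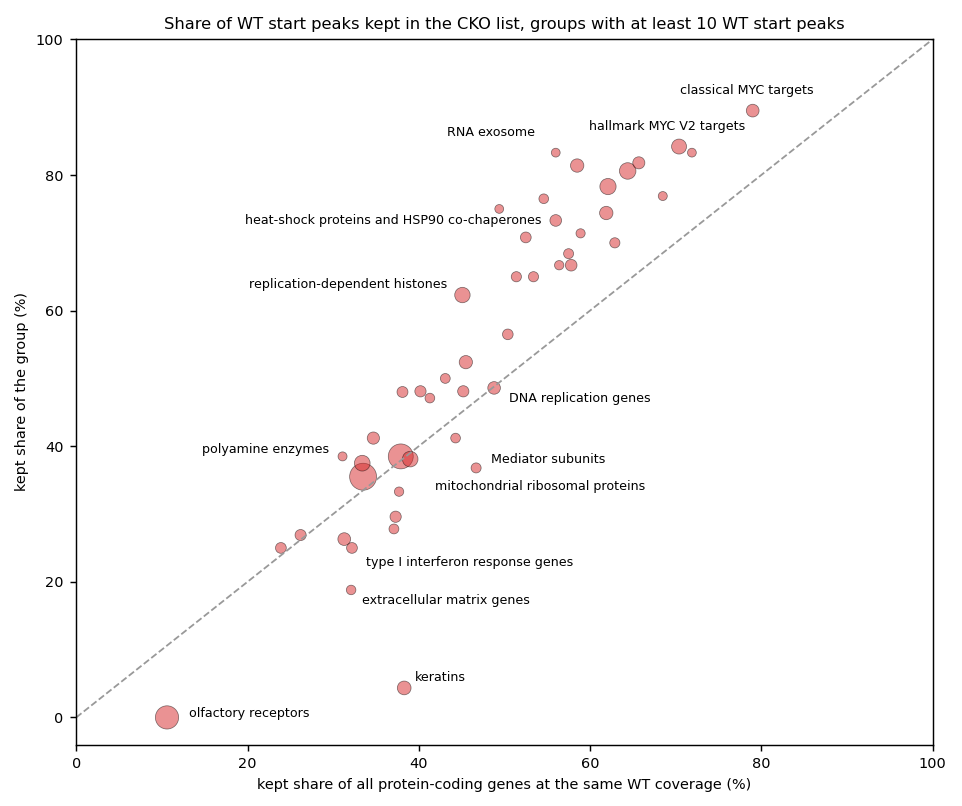
Percentage of WT start peaks kept by each group (vertical) against the percentage kept by all protein-coding genes at the same WT steps (horizontal), for groups with at least 10 WT start peaks, with circle size growing with that number. The dashed line marks equal shares. Classical MYC targets lie at 89.5% against 79.0%, and keratins at 4.35% against 38.3%.

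WT start peaks were spread unevenly over the chromosomes, and the part of gene content in this was not tested. The share of protein-coding genes with a WT start peak ran from 29.6% on chromosome 18 and 30.9% on chromosome 7 to 81.1% on chromosome 8 and 94.9% on chromosome 15, and 0 of 266 genes of chromosome Y had one. Apart from chromosome Y, which had none, the same share in the CKO list ran from 5.87% on chromosome X to 43.0% on chromosome 15. Chromosome 15 kept 43.6% of its WT start peaks, where all genes at its WT steps kept 54.8%. Both keratin clusters lie on chromosomes of high WT share (75.9% on chromosome 11), and the part of the chromosome in the keratin count was not tested. Hox genes kept 8 of 27 (29.6%, against 37.3%), of which 7 were in the Hoxa cluster on chromosome 6 (7 of 10). The Hox clusters on chromosomes 2, 11 and 15 kept 0 of 5, 0 of 4 and 1 of 8. Histone genes kept 38 of 61 (62.3%, against 45.1%), but these genes lie in dense clusters, and the 40 histone genes with a CKO start peak lie on 22 CKO peaks.

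**Figure D4:**
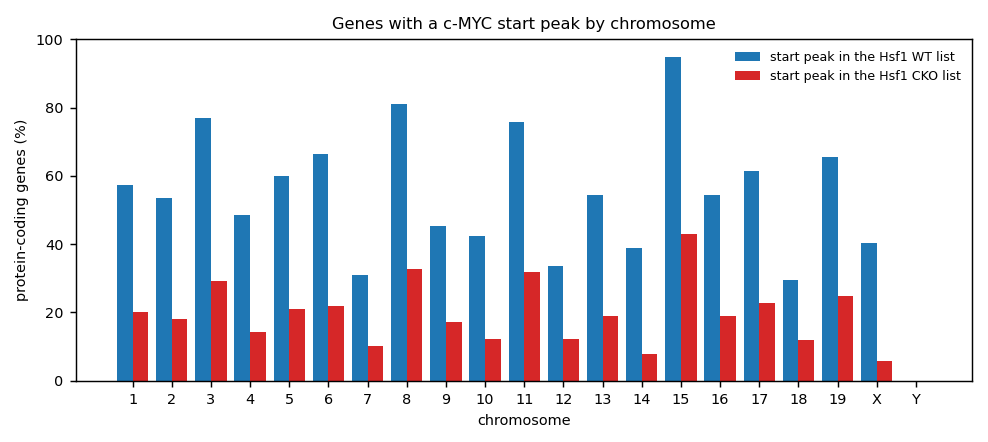
Percentage of protein-coding genes with a c-MYC start peak in the WT list and in the CKO list, by chromosome. Chromosome 15 has the highest bar in both lists (94.9% and 43.0%).

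A WT peak alone does not always mean that no CKO peak was near. Of the 39 genes with a WT start peak of 20 steps and more and no CKO start peak, 26 (66.7%) had a CKO peak within the same WT peak. Zzz3, an ATAC subunit with 32 WT steps, had a CKO peak of 40 steps 661 bases from its start. Srsf1, a splicing factor, had one 523 bases away, and Mrpl22 one 888 bases away. Among all 7899 genes with a WT start peak alone, 228 (2.89%) had a CKO peak within their WT peak, and the nearest CKO peak was a median of 86708 bases from the start.

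Marker lists did not single out the labelled cell type in the WT list. Of 12 fibroblast markers, 7 had a WT start peak (58.3%, where all genes have 54.7%), as did 6 of 8 epithelial, 5 of 8 endothelial, 5 of 8 neural, 2 of 10 haematopoietic, 2 of 8 muscle and 2 of 8 pluripotent markers. In the CKO list 5 fibroblast markers had one, among them Vim (rank 762) and Col1a1. The epithelial and neural lists had 1 each, Krt8 and Tubb3 at 6 CKO steps, and the other lists had none. In the RNA libraries with siControl, the fibroblast markers had a median of 20.4 FPKM, and the other lists had medians from 0 to 0.397 FPKM. Vim was among the high ones, at 956, 1080 and 932 FPKM. Single markers of other lists were expressed too, such as Nes of the neural list (73.1, 76.2 and 74.6 FPKM) and Krt18 of the epithelial list (32.4, 43.8 and 38.8 FPKM).

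RNA gave a readout that the peak lists did not use. MEFs that stably express LacZ received 10 nM siControl or siHsf1 for 2 days, with 3 libraries each of 7.22 to 8.16 M counts. The model also held 6 libraries of MEFs that stably express V5-tagged GCN5, with siControl or siHsf1 (3 each, 3.69 to 4.27 M counts), which share in the estimate of the spread. Hsf1 stood at 53.2, 53.3 and 55.5 FPKM with siControl and at 23.6, 22.7 and 19.5 FPKM with siHsf1. This is a knockdown and the peaks come from a deletion, so the cells differ. With libraries scaled to ERCC spike-in RNA, edgeR called 735 of 12187 genes lower (6.03%) and 121 higher (0.993%) at an adjusted p under 0.05. With TMM scaling, which centres on the typical gene, it called 2373 lower (19.5%) and 2571 higher (21.1%). The ERCC count rested on single libraries: it ranged from 167 genes without siHsf1 replicate 3 to 3337 without siHsf1 replicate 1, and it was 129 with the 6 LacZ libraries alone. The median log2 fold change of all genes was -0.35 with ERCC and 0.02 with TMM scaling, and medians of groups below are given relative to it.

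Genes that kept a c-MYC start peak were called lower with siHsf1 more often than genes with a WT peak alone. Among kept genes, 347 of 3830 tested (9.06%) were called lower by edgeR with ERCC scaling, and among genes with a WT start peak alone 180 of 4603 (3.91%). Genes with no start peak gave 93 of 2482 (3.75%). With TMM scaling the shares were 29.5%, 15.3% and 12.7%. The relative median log2 fold change was -0.06 for kept genes and 0.04 for genes with a WT peak alone, a small shift. Taller CKO peaks went with larger shares, at 5.39% for 3 to 9 CKO steps, 8.20% for 10 to 19 and 17.8% for 20 steps and more. With the 6 LacZ libraries fitted alone, the shares called lower were 0.73% of kept genes (28 of 3837) and 0.498% of genes with a WT peak alone (23 of 4621). These shares were not compared by a test, since genes are not replicates.

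Kept genes were also more highly expressed. With siControl the median was 14.6 FPKM at kept genes, 1.61 FPKM at genes with a WT peak alone and 0 with no start peak. Tested genes were cut into 3 equal parts by mean RNA level. Within the highest part, kept genes were called lower at 12.3% and genes with a WT peak alone at 3.97%. The shares were 6.09% and 4.22% within the middle part and 6.69% and 3.55% within the lowest. Levels were not made equal by this cut, as kept genes had the higher median in each part (40.4 against 29.6 FPKM in the highest). Growth genes were looked at apart, in 7 lists (classical MYC targets, MYC V2 targets, ribosome biogenesis, nucleotide synthesis, cytosolic ribosomal proteins, and translation initiation and elongation factors). In these, 133 of 223 kept genes (59.6%) and 19 of 55 with a WT peak alone (34.5%) were called lower with ERCC scaling. Outside them the shares were 5.93% and 3.54%, with kept genes near the 5.67% of all tested protein-coding genes. With TMM scaling the shares outside the lists were 25.8% and 14.6%, beside 19.6% of all tested protein-coding genes.

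**Figure D5:**
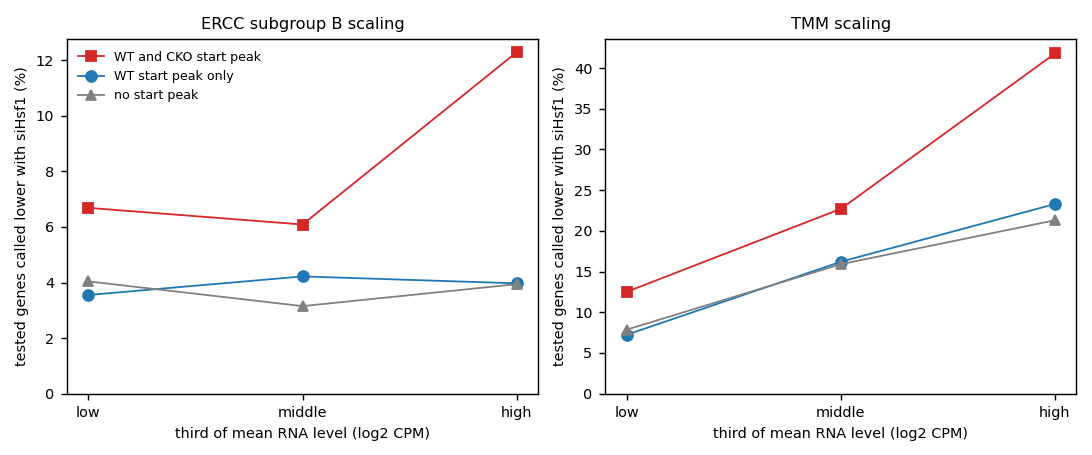
Percentage of tested genes called lower with siHsf1 (edgeR, adjusted p under 0.05) against mean RNA level in 3 equal parts, for genes with a start peak in both lists, in the WT list alone or in neither, with ERCC scaling (left) and TMM scaling (right). In the highest part, kept genes stand at 12.3% (ERCC) and 41.8% (TMM), and genes with a WT peak alone at 3.97% and 23.3%.

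Named members show the pattern and its exceptions. Ncl stood at 174, 190 and 177 FPKM with siControl and at 80.5, 80.0 and 82.5 FPKM with siHsf1, and the 3 values of each group do not overlap. Its log2 fold change was -1.50 (SE 0.32, edgeR adjusted p 0.00042) with ERCC and -1.14 (SE 0.05, adjusted p 2.8e-14) with TMM scaling. Ran fell from 342, 389 and 323 FPKM to 211, 208 and 218 FPKM (edgeR adjusted p 0.021 with ERCC and 1.5e-09 with TMM scaling). Hspd1 fell from 345, 384 and 365 FPKM to 146, 132 and 148 FPKM (edgeR adjusted p 4.9e-05 and 6.1e-15). Mnt, with a taller peak than Ncl in both lists, stood at 2.58, 2.72 and 2.82 FPKM and then at 3.84, 4.12 and 3.79 FPKM. Its edgeR adjusted p was 0.77 with ERCC and 0.00017 with TMM scaling, so it rose with TMM scaling alone. Myc itself fell from 53.5, 58.6 and 60.4 FPKM to 40.4, 36.3 and 35.7 FPKM (edgeR adjusted p 0.049 and 7.2e-07). Paics, which also kept a tall peak, had 136, 132 and 121 FPKM against 123, 120 and 123 FPKM and did not pass (edgeR adjusted p 0.4 and 0.32). Ppat, which shares that peak, fell from 18.8, 18.5 and 17.2 FPKM to 10.2, 10.1 and 11.1 FPKM (edgeR adjusted p 0.013 and 5e-08).

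The members with a WT peak alone were mixed. Utp20 stood at 12.8, 11 and 13.9 FPKM with siControl and at 8.61, 9.52 and 8.67 FPKM with siHsf1 (edgeR adjusted p 0.071 with ERCC and 3.9e-05 with TMM scaling). Cry1 had 5.18, 4.93 and 4.93 FPKM against 6.07, 6.28 and 5.02 FPKM and did not pass under either scaling (edgeR adjusted p 0.79 and 0.2). Dhx58, an interferon-induced regulator of RNA sensing, rose from 11.2, 12.1 and 11.4 FPKM to 34.1, 35.6 and 35.2 FPKM (edgeR adjusted p 0.0054 and 2.1e-13), though a CKO peak lay 1116 bases from its start. Interferon response genes were called higher by edgeR at 13 of 17 tested genes with a WT peak alone and at 2 of 6 kept genes with ERCC scaling, and at 17 of 17 and 6 of 6 with TMM scaling. The whole list, which includes genes with no start peak, gave 25 of 34 with ERCC and 34 of 34 with TMM scaling, so the rise was not limited to genes with a peak. Among cytosolic ribosomal protein genes, 44 of 54 kept genes and 11 of 15 with a WT peak alone were called lower with ERCC scaling. Among ribosome biogenesis factors the counts were 39 of 58 and 4 of 14, and with TMM scaling 54 of 58 and 12 of 14. Of all 12187 tested genes, edgeR called 6.03% lower and 0.993% higher with ERCC scaling, and 19.5% and 21.1% with TMM scaling.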

How the data were processed

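c-MYC CUT&RUN was measured in 4 samples with 1 IgG control. Per the submitters' processing notes, Bowtie2, SEACR, HISAT2 and DESeq2 were used with GRCm38 and mm10; no versions are named, and neither pooling of replicates nor scaling of the peak signal is stated. Each deposited peak carries the authors' maximal coverage, a signal; peaks were given to a genotype by the names of the lists. Gene starts came from the count table, peak starts were converted to 1-based positions, and the tallest peak within 500 bases was taken. Ranks and whole steps were computed within a list. The authors deposited whole-number counts per gene, tested with edgeR 4.0.16 in R 4.3.3 (quasi-likelihood, 4 group means, 12 libraries, filterByExpr with a minimum count of 10, Benjamini-Hochberg adjustment, two-sided), scaled to 23 ERCC subgroup B transcripts, with TMM beside it. The 23 spike-in transcripts of subgroup B were listed from general knowledge and were not checked against a source. The FPKM values the authors deposited were used for levels only. Where nothing says that libraries came from separate cultures, p-values measure the spread between libraries, which may be technical.

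The gene groups (49, with 7 marker lists) and their members were chosen with earlier results of these data known. Named genes are Hsf1, Myc, the 20 with the tallest CKO start peaks and, per group, up to 4 kept genes by CKO rank and 2 with a WT peak alone by WT rank; other names were chosen after their values were seen. The scripts were tested on simulated data. Genes with near-identical copies (Eif5a, Srm and Rps18 among them) can have their reads split, and no RNA value is given for them singly. They were not left out of the RNA counts and medians of classes and groups. On TMM-scaled values, same-numbered LacZ libraries correlated at 0.0161, 0.0322 and -0.0615 in their deviations from the group means. These values showed no pairing by number, but they leave out the spike-in. By replicate number, spike-in counts in LacZ cells were 10455, 19527 and 15494 with siControl and 12893, 29584 and 20201 with siHsf1. That order held with siControl but not with siHsf1 in GCN5 cells. A replicate block raised the calls with ERCC scaling from 856 to 3661, so pairing under that scaling was not settled. The libraries with siMyc and their controls were not analysed here.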

Additional observations from a re-analysis of the deposited data

How the results depend on the processing

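The kept share of 34.0% was 32.7% with peaks within 1000 bases of the start, 30.5% within 2000 bases, 35.5% at any RefSeq start, 36.7% with the peak maximum within 500 bases, 33.0% where the CKO peak overlapped WT peaks by at least 50% of its length, and 27.8% with the higher 50% of each list. With the WT list limited to its tallest peaks, at about the length of the CKO list, it was 78.1%. Chosen after seeing the data, leaving out chromosomes 3, 8, 11 and 15 gave 31.4% and counting each WT peak once 31.8%. A group counts as above when its kept share exceeds the all-gene share of that setting (34.0% at first), whatever its WT steps. Of the 39 groups above it at first, 30 remained above it with the shortened WT list and 35 to 39 under each other alternative. Against all genes at the same WT steps, 37 groups lay above at first. The short list moved the heat-shock, proteasome, RNA polymerase, Mediator, mitochondrial ribosomal, zinc finger, DNA replication, NRF2 and immediate early lists below the all-gene share, and NF-kB targets above it. Of the group shares recomputed, 60 lay outside the 95% Wilson interval of the first value and 429 inside it, intervals that are wide for short lists.

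For RNA, edgeR called 856 genes in all with ERCC scaling and 2700 had an unadjusted p under 0.05. The count was 4944 with TMM scaling, 4931 with DESeq2 size factors and 129 with the 6 LacZ libraries alone. Leaving out 1 library gave 167 to 3337 calls: 230, 1488 and 363 without siControl replicate 1, 2 or 3, and 3337, 319 and 167 without siHsf1 replicate 1, 2 or 3. With a replicate block it was 3661, and 5120 with TMM scaling and the block. Kept genes were called lower at a higher share than genes with a WT peak alone in 14 of 14 settings, with a difference of medians between -0.12 and -0.1. These settings include the first one and reuse the same libraries and genes, so they are not separate evidence. A change of scaling shifts all genes by nearly the same amount, so the difference of medians could hardly change. The cause of the changes in the number of calls was not tested. No paired analysis was possible for the peaks because the lists carry no replicate numbers.

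One list per genotype gives no replicate error, and the depth behind a peak is unknown. A missing peak can be a peak under the caller's threshold, so it does not show absence of c-MYC.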
